A study of Rattus norvegicus with 97 samples.

Results

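The genes of presynaptic vesicle release were read from arrays of the nucleus accumbens shell, a ventral striatal region of the reward circuit. Members were the genes whose single symbol in the platform annotation names a synaptotagmin (Syt with a number), a syntaxin (Stx), a syntaxin-binding protein (Stxbp), a vesicle-associated membrane protein (Vamp), a Snap gene (Snap with a number), a synapsin (Syn1, Syn2 or Syn3), a complexin (Cplx) or a RIM protein (Rims). Being chosen by symbol, members include Snap91, a clathrin adaptor. There were 52 members among 14217 genes with 1 symbol on the array. They had 80 probe sets in all, 30 of them had 1 probe set, and each gene was read from its probe set with the highest mean over all arrays.

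At a presynaptic terminal, a Vamp protein on the vesicle zips together with a syntaxin and Snap25 on the cell membrane into the SNARE complex, which drives fusion. Complexins and syntaxin-binding proteins set when this happens, calcium-binding synaptotagmins trigger it, RIM proteins tether vesicles and calcium channels at the active zone, and synapsins hold the reserve vesicles. Relatives of the same families serve fusion at the Golgi, endosomes and endoplasmic reticulum of every cell. Most neurons of the accumbens are GABAergic spiny projection neurons, and the mRNA of axons that arrive from cortex, thalamus and midbrain is made mostly in cell bodies outside the dissected tissue.

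One array was hybridised per rat, 97 in all, from 5 pairs of lines that breeders had selected for drinking much or little alcohol. The preferring lines were P, HAD1, HAD2, AA and sP, and their non-preferring counterparts NP, LAD1, LAD2, ANA and sNP, with 9 animals in each of sNP, sP and LAD1 and 10 in each of the other 7 lines. The labels give line, line pair, preference and animal number, and no strain of origin, sex, age or alcohol exposure, so line and breeding history cannot be told apart from any of these. Values are log2 RMA signals from 25 ng of total RNA amplified over 2 cycles, and differences are preferring minus non-preferring line with their standard error. A member was called when its adjusted p in a limma fit over all 31042 probe sets was under 0.05. Signals of different probe sets are not compared with each other, since probes differ in brightness.

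Tissue and RNA measures moved with some groups. The marker index, the mean of 18 spiny neuron markers minus that of 6 markers of the neighbouring pallidal, septal and basal forebrain cells, averaged 3.17 ± 1.331 (SD, n = 9) in sP and 4.77 ± 0.82 (SD, n = 9) in sNP (exact permutation test, two-sided, p = 0.00872; adjusted p = 0.0872 over 10 tests). In the other 4 pairs its difference lay between -0.32 and 0.20 (exact permutation tests, lowest adjusted p = 0.445). The spiny markers stayed bright in every line, with line means from 11.52 in sP to 12.57 in AA, whereas the pallidal, septal and basal forebrain markers ran from 6.93 in LAD1 to 8.35 in sP. The gap between the Gapdh 3' and 5' control probe sets averaged 4.71 in HAD1, 4.89 in LAD1, 2.91 in HAD2 and 2.83 in LAD2 against 0.0869 to 0.468 in the other 6 lines. There were 8 arrays that lay over 0.3 from the end named on their label on a score that is 0 at the non-preferring and 1 at the preferring median of their pair: HAD1 28 (0.0188), LAD1 37 (0.982), AA 19 (0.058), ANA 20 (0.907), P 9 (0.405), NP 9 (1.05), sP 4 (0.390) and sNP 4 (0.493). Markers of cortex (Slc17a7, Neurod6 and Tbr1), which the accumbens should lack, averaged 6.79 to 8.55 on 10 arrays (HAD1 21, 23, 24, 26 and 30, LAD1 34, 37 and 38, HAD2 2 and AA 17) and 5.01 to 6.13 on the others. Results that rest on these arrays are given with and without them, a setting added after the data were seen. In bulk tissue, fewer cells of a type and less RNA per cell cannot be told apart.

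In 4 of the 5 pairs few genes of any kind differed between the preferring and the non-preferring line, vesicle release genes among them. With limma, 0 of 52 members were called in P/NP, where 0.935% of all genes were, and 0 in HAD1/LAD1, where 0.95% of all genes were. A further member was called in HAD2/LAD2 (4.47% of all genes) and 1 in AA/ANA (1.84% of all genes). In sP/sNP 12 of 52 (23.1%) were called, 7 higher and 5 lower in sP, against 15.1% of all genes (8.76% higher and 6.39% lower). With each array centred on its median the 12 calls of that pair split into 5 higher and 7 lower, beside 12.3% of all probe sets called. Without dim probe sets, those with a mean signal under 6.08, 14 calls split into 6 and 8, beside 19% of the remaining probe sets. At an unadjusted p under 0.05 the counts were 1, 2, 6, 8 and 25 members in the order P/NP, HAD1/LAD1, HAD2/LAD2, AA/ANA and sP/sNP, which is 1.92%, 3.85%, 11.5%, 15.4% and 48.1% of members beside 7.43%, 9.19%, 14.6%, 9.28% and 35.3% of all genes. In no pair did the 2 lines of a member separate without overlap, which 0.0422%, 0.0141%, 0.767%, 0.134% and 0.499% of all genes did in that order of pairs. In all, 14 members were called in some pair, beside 20.9% of all genes, and none in 2 or more, as 2.05% of all genes were.

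**Figure D1:**
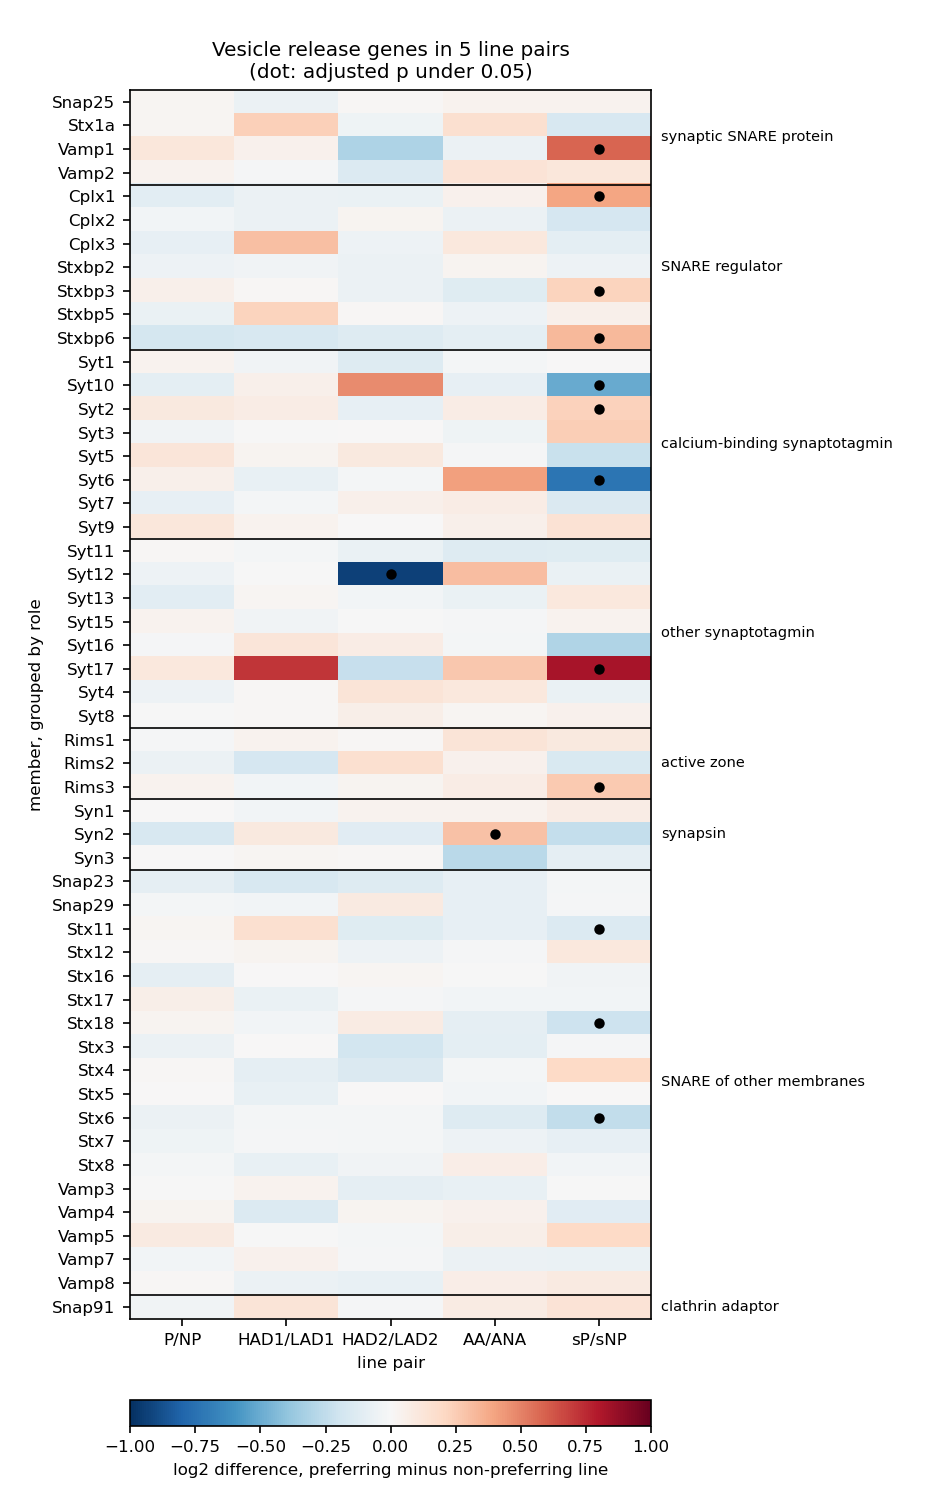
Log2 difference (colour, preferring minus non-preferring line) of each of the 52 members in rows, grouped by role, for each of the 5 line pairs in columns; a dot marks an adjusted p under 0.05. The sP/sNP column holds 12 of the 14 dots, and the others are Syt12 in HAD2/LAD2 and Syn2 in AA/ANA.

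Core genes of the fusion machinery differed in how closely their line differences were bounded. Snap25, the cell membrane SNARE of neurons, differed by 0.02 ± 0.044 in P/NP, -0.06 ± 0.039 in HAD1/LAD1, 0.01 ± 0.033 in HAD2/LAD2, 0.04 ± 0.056 in AA/ANA and 0.04 ± 0.040 in sP/sNP, with a lowest adjusted p of 0.582. Its 95% intervals over the 5 pairs lay between -0.14 and 0.16. The sP arrays ran from 14.41 to 14.58 (median 14.54) and the sNP arrays from 14.28 to 14.57 (median 14.49), so the lines overlapped almost wholly. Vamp2, the vesicle SNARE of most forebrain synapses, differed by -0.13 to 0.14 (lowest adjusted p = 0.122, in sP/sNP). Syt1, the fast calcium sensor, differed by -0.13 to 0.03 (lowest adjusted p = 0.727). Its only probe set averaged 7.48, under the lowest array median (7.82), which limits what can be seen of it. Stx1a, the syntaxin partner of Snap25, had a wider spread, with 0.24 ± 0.159 in HAD1/LAD1, 0.16 ± 0.200 in AA/ANA and -0.16 ± 0.055 in sP/sNP (lowest adjusted p = 0.0564). The 2 pairs with the large errors hold 9 of the 10 arrays with high cortex markers, without which Stx1a differed by 0.15 ± 0.081 in HAD1/LAD1 and -0.05 ± 0.069 in AA/ANA. The interval of a core gene reached 0.60 in P/NP (Vamp1), 0.57 in HAD1/LAD1 (Stx1a), 0.58 in AA/ANA (Stx1a) and 0.92 in sP/sNP (Vamp1), and in HAD2/LAD2 the intervals lay between -0.49 (Vamp1) and 0.40 (Rims2).

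Among the regulators of these core genes, Cplx2, the complexin of most forebrain neurons, differed by -0.17 ± 0.058 in sP/sNP (adjusted p = 0.0576) and by -0.06 to 0.03 in the other pairs. Syn1, which holds reserve vesicles, lay between -0.03 and 0.08 (lowest adjusted p = 0.248). Rims1 and Rims2, the large scaffolds of the active zone, lay between -0.01 and 0.13 and between -0.17 and 0.16. Over all members, the 95% interval of the difference stayed within 0.5 log2 (1.41-fold) on both sides for 47 of 52 in P/NP, 49 in HAD1/LAD1, 49 in HAD2/LAD2, 47 in AA/ANA and 45 in sP/sNP. Syt17 lay outside that bound in every pair, and it also had the largest spread within lines (pooled SD 0.856; median member 0.168, median over all genes 0.158). The smallest spread among members was that of Stx7, a syntaxin of late endosomes (0.0708), followed by Snap25 (0.0822).

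Syt12 was the member called in HAD2/LAD2. It is a synaptotagmin of synaptic vesicles whose C2 domains do not bind calcium. The HAD2 arrays ran from 7.78 to 9.04 with a median of 8.61, and the LAD2 arrays from 8.75 to 10.002 with a median of 9.46. The LAD2 animals were high, and the lines met only where the lowest LAD2 array, LAD2 18, fell within the HAD2 range. The difference was -0.94 ± 0.144, or 1.91-fold lower in HAD2 (limma, adjusted p = 0.000164), and it came from 1 probe set. It was -0.00297 ± 0.208 in the replicate pair HAD1/LAD1, -0.05 ± 0.153 in P/NP, 0.31 ± 0.109 in AA/ANA (adjusted p = 0.212) and -0.06 ± 0.081 in sP/sNP. The test that the 5 differences are equal gave an adjusted p of 7.82e-05. Beside this result, 5 of 8 oligodendrocyte markers and 3 of 6 endothelial markers were called lower in HAD2, 1 of 8 microglial markers higher and 1 lower, and 0 of 18 spiny neuron markers were called; their part in the result was not tested.

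Other members of HAD2/LAD2 lay near the threshold. Vamp1, the close relative of Vamp2, was -0.305 ± 0.090 (adjusted p = 0.0549), Syt4, which does not bind calcium in the usual way and sits on dense-core vesicles, was 0.13 ± 0.040 (adjusted p = 0.0775), and Syt10, a calcium sensor of secretory vesicles, was 0.47 ± 0.151 (adjusted p = 0.0858). With the marker index as a covariate these 3 were called too, at adjusted p = 0.0413, 0.00868 and 0.0138, in a fit that called 5.71% of all probe sets. With line alone, the dimmer probe set of Syt4 had the opposite sign (-0.12, limma, adjusted p = 0.469). The dimmer ones of Vamp1 gave -0.18 (adjusted p = 0.623) and -0.05 (adjusted p = 0.765).

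Syn2 was the member called in AA/ANA. The AA arrays ran from 11.13 to 11.82 with a median of 11.65, and the ANA arrays from 11.12 to 11.53 with a median of 11.31. AA was the higher line, but its lowest animal, AA 19, lay among the ANA animals, and the next lowest (11.474) lay within the ANA range too. The difference was 0.29 ± 0.078, or 1.226-fold (limma, adjusted p = 0.0463). Without AA 19 and ANA 20, whose scores lay near the other line, it was 0.35 (adjusted p = 0.00129), while the share of all probe sets called went from 2.35% to 4.44%. Those scores rest on the 50 probe sets that best part the same lines, so this setting is no independent support for Syn2. The other 2 probe sets of Syn2 gave 0.26 (adjusted p = 0.441) and 0.22 (adjusted p = 0.793), and the mean of all 3 gave 0.26 (adjusted p = 0.193), which is not called. Without AA 17, the AA animal with high cortex markers and the highest Syn2, the difference was 0.27 (adjusted p = 0.0898), which is not called either. In the other pairs Syn2 was -0.16 ± 0.068 (P/NP), 0.09 ± 0.061 (HAD1/LAD1), -0.11 ± 0.076 (HAD2/LAD2) and -0.24 ± 0.081 (sP/sNP, adjusted p = 0.0559), and the test that the 5 differences are equal gave an adjusted p of 0.000218.

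**Figure D2:**
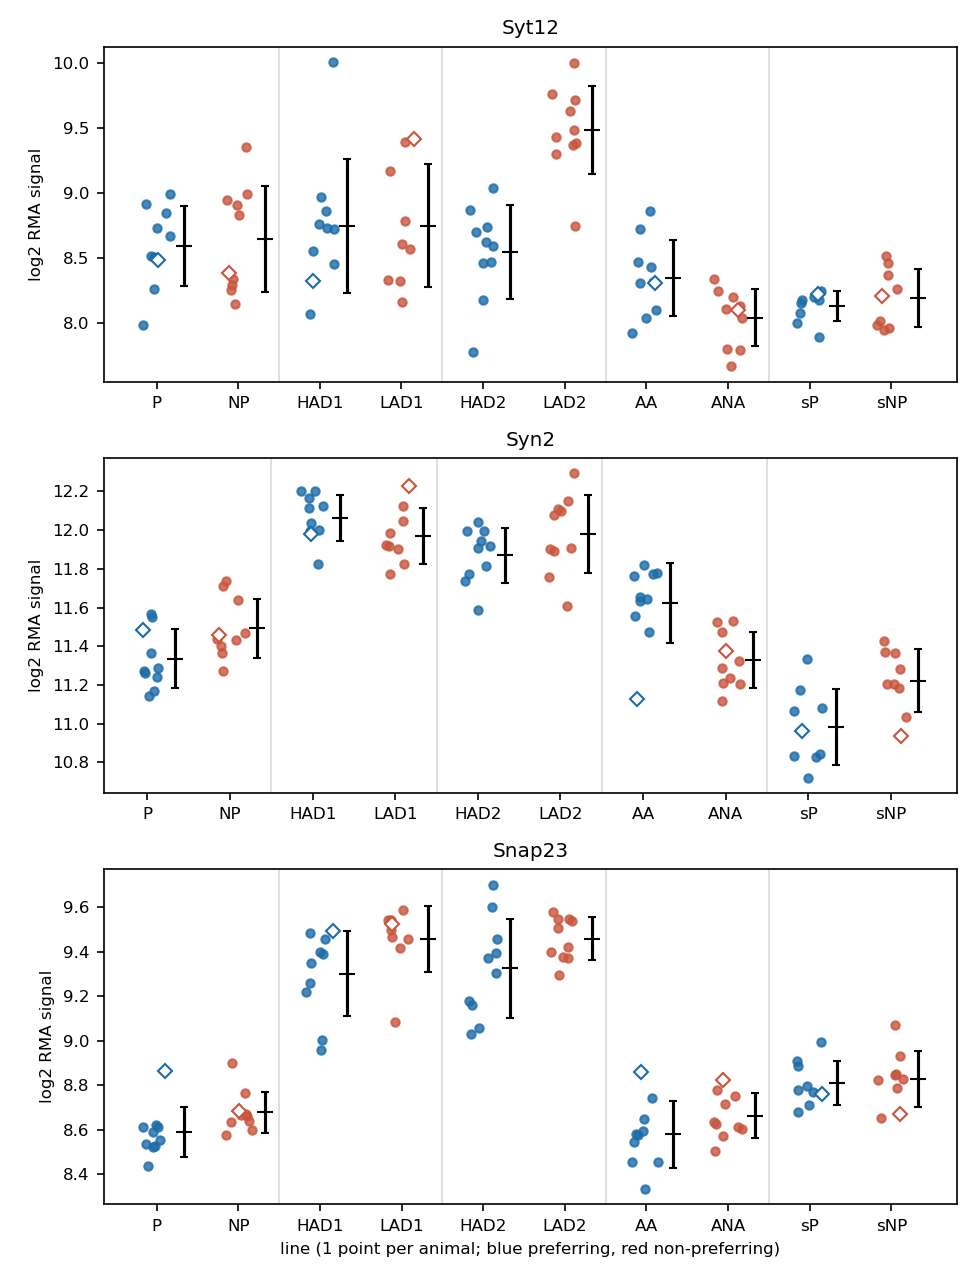
Log2 RMA signal of Syt12, Syn2 and Snap23 in every animal by line (preferring lines blue, non-preferring red; open diamonds are the 8 arrays that lie away from their label's end), with mean and SD beside each line. Syt12 stands high in LAD2 (8.75 to 10.002), and Snap23 lies lower in the preferring line by small margins. Syn2 is mostly higher in AA than ANA, with AA 19 lowest and some overlap besides it.

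In sP/sNP, where 15.1% of all genes were called, the called members were spread over several roles. Of the 4 synaptic SNARE genes 1 was higher in sP, of the 7 SNARE regulators 3 were higher, of the 8 calcium-binding synaptotagmins 1 was higher and 2 lower, of the 8 other synaptotagmins 1 was higher, of the 3 RIM genes 1 was higher, of the 3 synapsins none was called, and of the 18 SNAREs of other membranes 3 were lower. Snap91, the clathrin adaptor, was not called (limma, adjusted p = 0.0951). The same comparison called 16 of 18 spiny neuron markers lower in sP, 2 of 6 pallidal, septal and basal forebrain markers higher, 3 of 8 astrocyte markers higher, 1 of 8 oligodendrocyte markers higher and 2 of 6 endothelial markers lower. With the marker index as a covariate 0 of the 52 members were called (lowest adjusted p = 0.353), in a fit where the share of all probe sets called went from 12.9% to 1.05%, and the remaining differences of all members were at most 0.155 in size. With the Gapdh gap as a covariate 1 was called, Stx18, beside 2.78% of all probe sets. The 12 differences called with line alone moved less in that fit than with the marker index. Syt17 went from 0.82 to 0.72, Vamp1 from 0.58 to 0.53 and Cplx1 from 0.39 to 0.35. The gap averaged 0.403 in sP and 0.468 in sNP (exact permutation test, two-sided, p = 0.223).

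Vamp1, a vesicle SNARE that forms complexes as Vamp2 does, ran from 11.61 to 12.52 (median 12.22) in sP and from 11.08 to 12.14 (median 11.52) in sNP. The sP line was the higher one with overlap in the middle of the range. The difference was 0.58 ± 0.159 (limma, adjusted p = 0.0302), and 0.11 with the marker index as a covariate. The other 2 probe sets of Vamp1 gave 0.45 (adjusted p = 0.0679) and -0.13 (adjusted p = 0.066), so they do not all point the same way.

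Cplx1, the complexin that clamps and then helps fast release, ran from 13.79 to 14.47 (median 14.18) in sP and from 13.47 to 14.12 (median 13.83) in sNP. The difference was 0.39 ± 0.106, or 1.313-fold (limma, adjusted p = 0.0296), and its second probe set gave 0.34 (adjusted p = 0.0334). With the marker index it was 0.07. Stxbp3, a syntaxin partner that serves fusion in many cell types, ran from 10.81 to 11.18 in sP (median 11.02) and from 10.60 to 10.95 in sNP (median 10.74), a difference of 0.23 ± 0.061 (adjusted p = 0.0295). Stxbp6, also called amisyn, which occupies the Vamp position in SNARE complexes, was 0.32 ± 0.1003 higher (adjusted p = 0.0419; 0.24 and adjusted p = 0.158 in its second probe set), a call lost with arrays centred on their median (adjusted p = 0.0501).

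Syt6, a calcium-binding synaptotagmin found outside synaptic vesicles, ran from 6.37 to 7.92 (median 7.13) in sP and from 7.45 to 8.57 (median 7.89) in sNP. The sP animals were low and spread widely. The difference was -0.73 ± 0.203, or 1.66-fold lower (limma, adjusted p = 0.0319), and -0.12 with the marker index. Syt10 was lower as well (-0.50 ± 0.162, adjusted p = 0.0468), whereas Syt2, the fast calcium sensor of brainstem and some interneuron terminals, was higher (0.23 ± 0.069, adjusted p = 0.0376; adjusted p = 0.0532 with arrays centred on their median). Syt17, a synaptotagmin with no transmembrane segment, had the largest difference of the members in this pair: sP ran from 8.94 to 10.42 (median 10.01) and sNP from 8.27 to 9.92 (median 9.11). It was 0.82 ± 0.259 higher, or 1.77-fold (adjusted p = 0.044; 0.94 and adjusted p = 0.0433 in its second probe set), and 0.03 with the marker index.

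Stx18, a syntaxin of the endoplasmic reticulum, had the smallest adjusted p of the members in this pair. It ran from 9.10 to 9.40 (median 9.35) in sP and from 9.38 to 9.63 (median 9.51) in sNP, and the lines met only at their edges. The difference was -0.21 ± 0.048, or 1.16-fold lower (limma, adjusted p = 0.0144), and -0.11 with the marker index. Stx6, a syntaxin of the trans-Golgi network, ran from 10.49 to 11.08 (median 10.91) in sP and from 10.99 to 11.18 (median 11.12) in sNP (-0.25 ± 0.070, adjusted p = 0.0329; -0.22 and adjusted p = 0.104 in its second probe set). Stx11, a syntaxin of immune cell granules, was lower by a small amount at dim signal (-0.14 ± 0.040, adjusted p = 0.0348), and Rims3, a short RIM protein without the Rab3-binding part, was higher at dim signal (0.26 ± 0.079, adjusted p = 0.0394). Syt2, Rims3 and Stx11 are 3 of the 7 dim members.

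**Figure D3:**
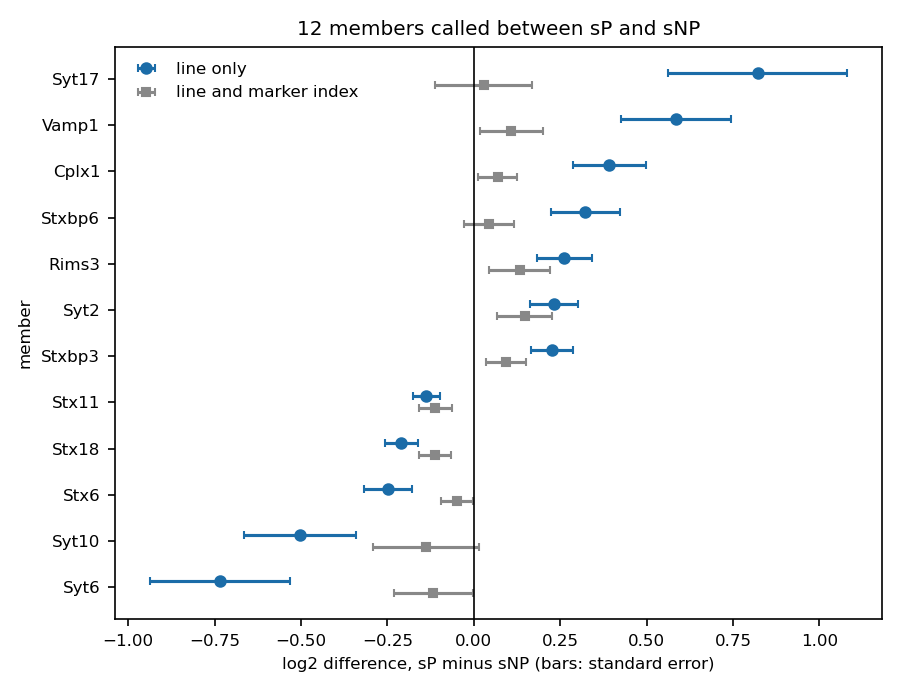
Log2 difference sP minus sNP with its standard error for the 12 called members, from the fit with line alone (blue circles) and with the marker index per array as a covariate (grey squares). The values with the index lie closer to 0 for all 12, such as 0.03 in place of 0.82 for Syt17.

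Many members followed the marker index from animal to animal within lines, in a fit over all 97 arrays with a mean for each line that was added after the data were seen. The slope passed an adjusted p of 0.05 in 30 of 52 members (57.7%), 13 rising and 17 falling with the index, which is close to the 57.9% of genes outside the index (25.6% rising and 32.3% falling). Per unit of the index, Syt6 rose by 0.43 ± 0.031 log2, Syt10 by 0.26 ± 0.023, Rims2 by 0.19 ± 0.019 and Syt5 by 0.18 ± 0.015. Syt17 fell by 0.56 ± 0.058, Vamp1 fell by 0.29 ± 0.017, Stxbp6 fell by 0.18 ± 0.024 and Cplx1 fell by 0.14 ± 0.014. Snap25 (-0.02 ± 0.008, adjusted p = 0.109) and Syt1 (0.02 ± 0.022, adjusted p = 0.426) did not pass with all arrays, although Snap25 did without the 8 departing ones (adjusted p = 0.0209), nor did Syn2, Stx1a, Syt2 and Rims1, while Vamp2 (-0.04 ± 0.012, adjusted p = 0.0062) and Syn1 (-0.04 ± 0.015, adjusted p = 0.0193) did. Without the P and NP arrays, which hold the lowest index (0.443, in P 5), 24 members passed against 46.6% of genes, and neither Vamp2 nor Syn1 was among them. The 8 genes named with their slopes above passed in that fit as well.

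**Figure D4:**
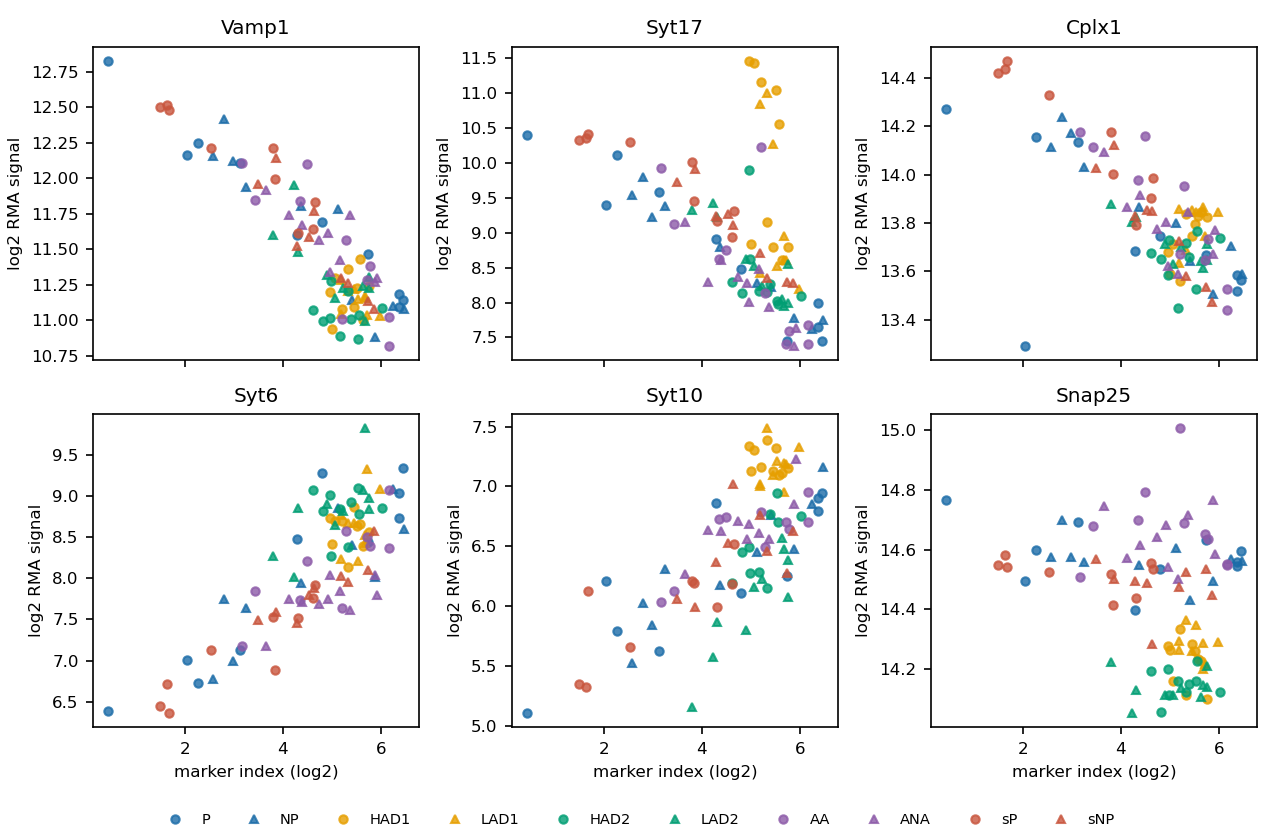
Log2 RMA signal of 6 members against the marker index (log2, higher with more spiny neuron marker signal), 1 point per animal, coloured by line pair (circles preferring, triangles non-preferring). Vamp1, Syt17 and Cplx1 fall along the index and Syt6 and Syt10 rise, while Snap25 has a slope near 0 (-0.02); HAD1 and LAD1 animals with Syt17 above 10 lie off the line of the rest, and these have high cortex markers.

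The promoters of 3 members that move with the index are shown because 2 of them, Vamp1 and Cplx1, fall together and Syt6 rises. Each sequence is the 250 bases before the annotated start, on the + strand, from RefSeq on GRCr8, with matches in capitals to the cAMP response element TGACGTCA, the GC box GGGCGG and the E-box CACGTG on either strand. The 3 motifs share no letters where they match here. Vamp1 (chr4:159698644-159698893) holds a cAMP response element 71 to 64 bases before the start and a GC box further upstream, Cplx1 (chr14:1328823-1329072) holds 2 GC boxes, 1 on each strand, and Syt6 (chr2:193781226-193781475) holds a GC box and, 12 to 7 bases before the start, an E-box.
Vamp1: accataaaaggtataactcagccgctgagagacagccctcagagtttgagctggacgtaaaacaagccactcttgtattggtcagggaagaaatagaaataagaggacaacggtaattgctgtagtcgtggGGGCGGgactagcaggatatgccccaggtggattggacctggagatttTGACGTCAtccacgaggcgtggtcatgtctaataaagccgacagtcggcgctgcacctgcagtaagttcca
Cplx1: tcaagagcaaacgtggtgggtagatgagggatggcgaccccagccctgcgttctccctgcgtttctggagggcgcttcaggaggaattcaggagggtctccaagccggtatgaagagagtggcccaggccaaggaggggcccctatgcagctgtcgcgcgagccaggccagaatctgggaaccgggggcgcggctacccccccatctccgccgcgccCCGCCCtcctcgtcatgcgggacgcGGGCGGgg
Syt6: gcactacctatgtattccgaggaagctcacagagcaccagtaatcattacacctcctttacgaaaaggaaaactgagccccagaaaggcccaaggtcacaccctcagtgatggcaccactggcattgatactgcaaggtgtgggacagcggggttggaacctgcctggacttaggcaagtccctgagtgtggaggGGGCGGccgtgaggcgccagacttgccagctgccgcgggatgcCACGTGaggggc
Promoters of 40 of the 52 members matched by symbol, 44 promoters in all. A member was counted if any of its promoters matched, whereas the share beside it is per promoter, so the 2 are unlike measures. The cAMP response element was in those of 2 (Syn1 and Vamp1; 5.0%) against 1.59% of 33469 promoters of this length, the GC box in 26 (65.0%) against 30.5%, and the E-box in 5 (12.5%) against 5.59%. These are matches of letters only.

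Syt17 took a split course in HAD1/LAD1, singled out here after its values were seen. Of the HAD1 animals 5 lay between 8.60 and 9.15 and the other 5 between 10.55 and 11.46, while 6 LAD1 animals lay between 8.19 and 8.95 and the other 3 between 10.28 and 11.01. No animal of the pair had a value between 9.15 and 10.28. The second probe set parted the same animals, at most 6.97 on the low side and at least 7.73 on the high side. The cortex markers parted the same 8 animals from the other 11: they averaged 6.79 to 7.505 in the HAD1 animals with high Syt17 and 5.34 to 5.62 in those with low Syt17, and 6.80 to 7.39 and 5.43 to 5.68 in LAD1. Their part in the split was not tested. The marker index was 4.95 to 5.57 in the HAD1 animals with high Syt17 and 5.00 to 5.75 in those with low Syt17, so the ranges overlapped, as they did in LAD1 (5.19 to 5.45 and 5.18 to 5.97). The difference between the lines was 0.72 ± 0.492 (limma, adjusted p = 0.755), within the spread between animals, and 0.29 ± 0.125 (adjusted p = 0.569) without the arrays with high cortex markers.

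Over the 5 pairs, Snap23 was the member whose average difference was called. Snap23 is the relative of Snap25 that serves fusion outside synaptic vesicles. Its median was 8.57 in P and 8.66 in NP, 9.37 in HAD1 and 9.50 in LAD1, 9.34 in HAD2 and 9.46 in LAD2, 8.58 in AA and 8.63 in ANA, and 8.78 in sP and 8.83 in sNP. The preferring line was lower in 5 of 5 pairs, by less than the range of animals within a line. The average was -0.10 ± 0.029 (limma, adjusted p = 0.0391), the call of 1 member beside 3.08% of all genes. Its second probe set gave -0.19, -0.18 and -0.24 in P/NP, HAD1/LAD1 and HAD2/LAD2 but 0.11 and 0.07 in AA/ANA and sP/sNP, and with the mean of both probe sets the average was -0.09 (adjusted p = 0.107). Without the 10 arrays with high cortex markers it was -0.07 ± 0.030 (adjusted p = 0.341). Taking the 5 line differences as the replicates, Snap23 was at an unadjusted p of 0.0133 and an adjusted p of 0.948, and 0% of all genes were called; 1 of 52 members had an unadjusted p under 0.05 there, against 3.69% of all genes.

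Besides Snap23, 3 members had the same sign in all 5 pairs on their brightest probe set. Stx6 averaged -0.10 ± 0.030 (adjusted p = 0.0509), Stx7 averaged -0.04 (adjusted p = 0.134) and Syt9, a calcium sensor of fast release in the striatum, averaged 0.07 (adjusted p = 0.268). With Snap23 these are 4 of 52 members, beside 6.37% of all genes. The second probe set of Stx6 did not keep 1 sign. It gave 0.03 in P/NP and 0.07 in HAD2/LAD2, but -0.008, -0.17 and -0.22 in HAD1/LAD1, AA/ANA and sP/sNP.

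The test that a member's 5 differences are equal called 7 of 52 (13.5%), beside 11.8% of all genes. Besides Syt12 and Syn2 these were Vamp1 (adjusted p = 0.0442), Cplx1 (0.0199), Syt10 (0.0286), Stx18 (0.0124) and Stx4 (0.0396). Vamp1 was -0.305 in HAD2/LAD2 and 0.58 in sP/sNP, and Syt10 was 0.47 in HAD2/LAD2 and -0.50 in sP/sNP, opposite in sign within each gene. Stx4, the syntaxin of the cell membrane outside release sites, was -0.15 ± 0.050 in HAD2/LAD2 (adjusted p = 0.121) and 0.20 ± 0.066 in sP/sNP (adjusted p = 0.0536), neither of them called. Stx18 was 0.08 in HAD2/LAD2, -0.09 in AA/ANA and -0.21 in sP/sNP, and Cplx1 lay between -0.11 and 0.04 in the 4 pairs other than sP/sNP. With the marker index as a covariate 3 were called, Syn2, Syt10 and Syt12, while the share of all probe sets was 11.9% beside 11.7% without it. Without the arrays with high cortex markers 4 were called, Cplx1, Stx18, Syn2 and Syt12, beside 10.4% of all probe sets.

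The level of many members differed more between the HAD/LAD lines and the other 6 lines than between the lines of a pair. Line means of the 4 HAD and LAD lines lay all above or all below those of the other 6 in 42 of 52 members (80.8%; 25 above and 17 below), beside 61.2% of all genes. Cplx2 had line means of 8.97 to 9.38 in HAD and LAD lines and of 12.59 to 13.02 in the others. Snap25 had 14.14 to 14.28 against 14.48 to 14.68, and Syt7, a slow calcium sensor, 6.06 to 6.39 against 7.31 to 7.79. Syt16 lay the other way, with 11.69 to 11.98 against 10.01 to 10.48. The Gapdh gap parts the same lines (2.83 to 4.89 against 0.0869 to 0.468), and so do the oligodendrocyte markers (line means of 11.02 to 11.53 against 12.38 to 12.92). Line origin, RNA handling and tissue makeup cannot be told apart in these levels.

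Of 63 further genes of the release pathway, 58 were measured. Called were 1 (1.72%) in P/NP, 0 in HAD1/LAD1, 4 (6.9%) in HAD2/LAD2 and 1 (1.72%) in AA/ANA, beside 0.935%, 0.95%, 4.47% and 1.84% of all genes. In sP/sNP 11 were called, 7 higher and 4 lower, beside 15.1% of all genes. Rab27b, a small GTPase of vesicle docking, was the gene called in P/NP: P ran from 8.49 to 9.99 (median 9.04) and NP from 8.90 to 10.84 (median 10.41), a difference of -1.12 ± 0.233, or 2.171-fold lower (limma, adjusted p = 0.0172). It was called lower in AA too (8.60 to 10.62, median 9.91, against 10.05 to 11.23, median 10.61, in ANA; -0.92 ± 0.211, adjusted p = 0.0177) and in sP (-0.61 ± 0.113, adjusted p = 0.00298). Its differences were 0.14 in HAD1/LAD1 and 0.22 in HAD2/LAD2, and the average was -0.46 ± 0.087 (adjusted p = 0.000175). The error of that average is the spread between animals. Taking the 5 line differences as the replicates, 0 of the 58 pathway genes were called, as were 0% of all genes. The dimmer probe set of Rab27b gave -0.26, 0.03, 0.26, -0.13 and -0.04 in the 5 pairs and was called in none.

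Lin7a, an adaptor of the presynaptic scaffold with Cask, ran from 5.15 to 5.43 in HAD2 (median 5.27) and from 5.68 to 6.63 in LAD2 (median 6.38) with no overlap, as 0.767% of all genes had in that pair. The difference was -0.97 ± 0.101, or 1.96-fold lower (limma, adjusted p = 9.09e-07). Lin7a was read from its only probe set, whose mean over all arrays was 7.05. Every HAD2 value and the lowest LAD2 value lay under 6.08, the cut used for dim probe sets, so the size of the difference is uncertain. Sypl1, a relative of synaptophysin, did not overlap in that pair either, with 12.70 to 12.94 in HAD2 and 12.98 to 13.18 in LAD2 (-0.27 ± 0.041, adjusted p = 0.000115). Sh3gl2, the endophilin of vesicle recycling, was lower in HAD2 (-0.48 ± 0.103, adjusted p = 0.00497) and the adhesion receptor gene Nrxn3 higher (0.30 ± 0.074, adjusted p = 0.0177). Their dimmer probe sets gave -0.06 (adjusted p = 0.748) and -0.007 (adjusted p = 0.988). In the replicate pair HAD1/LAD1 Sh3gl2 was 0.11 (adjusted p = 0.886) and Nrxn3 was -0.32 (adjusted p = 0.106). In sP/sNP the 5 with the smallest adjusted p were Rab27b, Itsn1 (-0.47, adjusted p = 0.0142), a scaffold of endocytosis, Rab3d (-0.42, adjusted p = 0.0244), Nrxn2 (0.31, adjusted p = 0.0302) and Syp (0.31, adjusted p = 0.0316), a vesicle membrane protein. The dimmer probe sets of Itsn1 gave -0.08 (adjusted p = 0.374) and -0.05 (adjusted p = 0.675), and that of Nrxn2 gave 0.19 (adjusted p = 0.082). Within lines, Itsn1 (0.11), Rab3d (0.24), Nrxn2 (-0.16) and Syp (-0.12) had slopes on the marker index that passed an adjusted p of 0.05. Rab27b did not (-0.08, adjusted p = 0.103). The slope passed in 40 of 57 pathway genes outside the index (70.2%), beside 57.9% of genes. The part of the index in these sP/sNP differences was not tested.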

How the data were processed

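The authors deposited log2 RMA signals (RMA per the submitters' processing notes, version not given in the sources used here), and these deposited log2 values were used without further scaling. Of 31099 probe sets 57 controls were left out; values ran from 3.56 to 16.06 and array medians from 7.82 to 8.02. Per the labels' protocols 25 ng of RNA was amplified over 2 cycles before biotin labelling. No 2 arrays held identical values (highest correlation 0.998). Raw intensities were not used here, and precision is limited by 9 or 10 arrays per line. The labels do not say whether animals share litters or cages, so p-values measure the spread between these animals.

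Each pair was fitted alone with limma 3.58.1 in R 4.3.3 (two-sided, Benjamini-Hochberg over 31042 probe sets); fits over all arrays gave the average difference, the F test of equal differences and the slopes on the marker index, and a further fit took the 5 line differences as replicates. Counts are of brightest probe sets. Fits were tested on simulated data. Permutation tests used scipy 1.17.1. Animal numbers are shared within P/NP and sP/sNP, but same-numbered animals correlated above 0.1 in 6 of 10 and 5 of 9 cases, so they were not treated as pairs. A setting without the 10 arrays with high cortex markers was added after the data were seen. Members, lists and settings were chosen with earlier results of these data known. Named were called members, with values by line for up to 6 per comparison by adjusted p, a fixed set of core genes and up to 5 called pathway genes per pair. Symbols are those of the platform annotation.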

Additional observations from a re-analysis of the deposited data

Results flagged for a closer look

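In 3 of 38 sets of line values tested there was an animal far from the rest of its line, beside about 1 in 20 by chance. Snap23 was highest in P 9 (8.866, next 8.622) and lowest in LAD1 33 (9.082, next 9.414), and Syn2 was lowest in AA 19 (11.126, next 11.474). P 9 and AA 19 are among the 8 arrays that lie away from the end named on their label.

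The difference between preferring and non-preferring line itself differed between pairs, by limma's F test over 97 arrays, for 7 members. The adjusted p was 7.82e-05 for Syt12, 0.0002184 for Syn2, 0.01244 for Stx18, 0.0199 for Cplx1, 0.02856 for Syt10, 0.03962 for Stx4 and 0.04424 for Vamp1.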

How the results depend on the processing

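Counts of called members kept within 1.5 times of the reported count under most settings, and of 108 recomputed values of members called in a pair 0 changed sign. Exceptions follow, and the cause was not tested. Shares beside the counts are of all probe sets in the same fit. Without the departing arrays HAD1/LAD1 had 1 call in place of 0 (Vamp4, -0.17, adjusted p = 0.0416), while the share called went from 1.2% to 3.98%. HAD2/LAD2 had 1 call, against 4 with the marker index as a covariate, 3 with trend and robust moderation (Syt12, Syt4 and Vamp1) and 2 without dim probe sets. The share called was 4.6%, then 5.71%, 4.54% and 5.97% in that order. AA/ANA fell from 1 to 0 with the mean of a gene's probe sets and without AA 17, the array with high cortex markers. The 12 calls of sP/sNP became 0 with the marker index and 1 with the Gapdh gap, while the share went from 12.9% to 1.05% and 2.78%. The average had 1 call, against 2 with the marker index, with trend and robust moderation or without dim probe sets (Snap23 and Stx6). It had 0 with the mean of probe sets or without the 10 arrays with high cortex markers. The share called was 3.37%, then 4.35%, 3.36%, 4.5%, 2.96% (of genes) and 2.54% in that order. The F test had 7 calls (share 11.7%), against 3 with the marker index (11.9%) and 4 without those 10 arrays (10.4%). Other settings gave 12 to 14 calls in sP/sNP (shares 12.3% to 19%) and 5 to 8 in the F test (shares 11.5% to 17.5%). With the animal number as a replicate block P/NP had 0 calls and sP/sNP 14, beside shares of 0.635% and 16.2%. Of these 14 calls 10 were shared, and Stx11 (adjusted p = 0.0543) and Syt10 (0.0752) were lost. Same-numbered animals correlated best with each other in 4 of 10 cases in P/NP and 2 of 9 in sP/sNP. Of the 52 members 7 are dim, which limits what can be seen of them.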
